A study of Mus musculus with 4 samples.

Results

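The 10 genes described here encode carriers, channels and a pump that move sodium and chloride across the epithelium of the colon. They are the sodium/proton exchangers Slc9a2 (NHE2) and Slc9a3 (NHE3), the chloride/bicarbonate exchanger Slc26a3 (DRA), the sodium- and chloride-driven amino acid carrier Slc6a14, the subunits Scnn1a, Scnn1b and Scnn1g of the epithelial sodium channel ENaC, the chloride channel Cftr, the sodium-potassium-chloride cotransporter Slc12a2 (NKCC1) and the proton/potassium pump Atp12a. They were taken by symbol, and each symbol matched a single gene among the 32285 counted. In cells from the colon of C57/BL6J mice, single-cell RNA sequencing in droplets counted unique molecular identifiers (UMIs) near the 3′ end of transcripts, in 2 batches of pooled cells. Every batch mixed 4 conditions: JUP-KO and wild-type mice, each untreated or given dextran sulfate sodium (DSS), a polysaccharide that injures the colon lining. JUP-KO stands for a knockout of Jup, which encodes the junction protein plakoglobin. The sources used here do not give where the deletion acts, the age, sex and number of the mice, or the DSS dose. Before mixing, the cells of each condition received an antibody with a DNA barcode (a hashtag), and viable cells were sorted.

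The hashtags are called Ctrl_WT, Ctrl_DSS, TG_WT and TG_DSS in the deposited data, and no source used here ties these names to the antibody numbers of the protocol. Taken by name, TG_WT marks untreated JUP-KO cells and Ctrl_DSS marks DSS-treated wild-type cells. Taken by antibody number, the meanings of those 2 tags are exchanged, whereas Ctrl_WT (untreated wild type) and TG_DSS (DSS-treated JUP-KO) stay as they are. Results are therefore given for cells labelled with a tag, and neither genotype nor DSS is assigned to Ctrl_DSS or TG_WT.

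Salt absorption in the colon runs in 2 modes. In the electroneutral mode, sodium/proton and chloride/bicarbonate exchangers in the apical membrane of absorptive cells work side by side and bring in sodium chloride, with water following. In the electrogenic mode, sodium enters through ENaC, a channel built from an alpha, a beta and a gamma subunit that responds to aldosterone. Fluid secretion works the other way: NKCC1 loads chloride into the cell across the basolateral membrane, and CFTR lets it out into the lumen. The sodium pump drives all of these routes, and loss of DRA or NHE3 function is known to cause chloride- or sodium-losing diarrhoea.

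After filtering, 13629 cells were kept, 7157 in batch 1 (median 12301 UMIs) and 6472 in batch 2 (median 7090.5), and 14 barcodes occurred in both. By marker genes, 8208 cells were epithelial-like, and the 10 genes took no part in the clustering that defined them. The epithelial-like cells fell into 14 subtypes: 3908 cells were colonocyte-like, 2213 progenitor-like, 1374 goblet-like, 435 enteroendocrine-like, 143 tuft-like, and 135 formed a cluster led by Kcnma1 and Slc12a8 that was given no name from the marker lists. By marker scores, 68 cells of that cluster came closest to the deep-crypt goblet list, 43 to the crypt-base list and 22 to the mature goblet list. Most epithelial-like cells carried no callable tag (82.0% in batch 1 and 73.9% in batch 2). They entered the levels by subtype and no comparison between tags. In CPM (UMIs of a gene per 1000000 UMIs of the cells summed), Jup itself stood at 69.8 and 65.6 in epithelial-like cells tagged Ctrl_WT in batches 1 and 2, at 76.3 and 96.2 with TG_WT, 13.8 and 8.92 with Ctrl_DSS and 28.3 and 64.1 with TG_DSS. Read by name, the untreated JUP-KO cells (TG_WT) thus had more Jup than Ctrl_WT, against that label. Read by antibody number, both JUP-KO tags (Ctrl_DSS and TG_DSS) lay under Ctrl_WT in these sums, TG_DSS in batch 2 only slightly. Within colonocyte-like cells TG_DSS had 25.2 and 111 and Ctrl_WT 96.5 and 71.0, so in batch 2 TG_DSS was the higher, against its label under either reading. These UMIs come from the 3′ end and check the tags only if the deletion removes it.

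The genes lie on different chromosomes, except for Scnn1b and Scnn1g on 7 and Scnn1a and Cftr on 6 (mm10, GENCODE M21). The exchangers are Slc9a2 (ENSMUSG00000026062, chr1:40680574-40769273, plus strand), Slc9a3 (ENSMUSG00000036123, chr13:74121457-74169442, plus strand) and Slc26a3 (ENSMUSG00000001225, chr12:31390871-31473917, plus strand). Slc6a14 is X-linked (ENSMUSG00000031089, chrX:21714896-21742355, plus strand). The ENaC genes are Scnn1a (ENSMUSG00000030340, chr6:125320659-125344943, plus strand), Scnn1b (ENSMUSG00000030873, chr7:121865038-121918514, plus strand) and Scnn1g (ENSMUSG00000000216, chr7:121734479-121768475, plus strand). The last of those printed are Cftr (ENSMUSG00000041301, chr6:18170687-18322768, plus strand) and Atp12a (ENSMUSG00000022229, chr14:56365068-56388550, plus strand). Slc26a3, Slc6a14 and Cftr overlap a small gene on their own strand (Gm9359, Gm25553 and Gm15595). On the other strand, Slc9a2 overlaps Gm37623, Scnn1b Cog7, Cftr Gm15592 and Atp12a Gm10873. How UMIs from those stretches were assigned was not tested.

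Promoter sequence was available for 6 of the 10 genes in the RefSeq table (build GRCm38.p6). The 3 shown were picked as those of an absorptive exchanger of each kind and of the secretory channel, and they differ in make-up. The windows hold the bases just before the RefSeq transcript start, on the plus strand, and that of Slc26a3 ends 2 bases short of it. Slc26a3 spans chr12:31437969-31438216 (248 bases, 38.8% G or C; GENCODE also lists transcripts that start upstream of this window). Slc9a3 spans chr13:74121163-74121412 (250 bases, 67.6%), and Cftr spans chr6:18170437-18170686 (250 bases, 76.4%). The median over the 32851 promoters of the table was 52.4%. Capitals mark the HNF1 match and the TATA box in Slc26a3, and the GC boxes GGGCGG, on either strand, in Slc9a3 and Cftr.
Slc26a3: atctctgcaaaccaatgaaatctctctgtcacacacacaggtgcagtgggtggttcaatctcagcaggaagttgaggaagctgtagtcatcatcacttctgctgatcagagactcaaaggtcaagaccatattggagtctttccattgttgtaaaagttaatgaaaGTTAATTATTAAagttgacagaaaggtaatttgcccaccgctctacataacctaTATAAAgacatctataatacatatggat
Slc9a3: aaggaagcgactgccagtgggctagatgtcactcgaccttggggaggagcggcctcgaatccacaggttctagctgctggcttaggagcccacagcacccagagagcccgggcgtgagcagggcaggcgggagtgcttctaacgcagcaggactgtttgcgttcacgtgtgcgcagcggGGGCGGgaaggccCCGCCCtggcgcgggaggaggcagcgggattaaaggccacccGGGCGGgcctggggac
Cftr: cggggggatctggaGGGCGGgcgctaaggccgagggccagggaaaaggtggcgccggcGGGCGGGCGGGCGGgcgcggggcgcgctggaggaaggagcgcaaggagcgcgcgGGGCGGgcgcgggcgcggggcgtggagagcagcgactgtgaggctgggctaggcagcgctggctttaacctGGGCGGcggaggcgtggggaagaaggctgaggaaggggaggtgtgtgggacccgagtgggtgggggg

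In the 250 bases before the start, 11 motifs were searched on both strands. The HNF1 motif, the site of a homeodomain factor of liver, kidney and gut epithelium, occurred in Slc26a3 at -84, counted back from the start, and in 0.0609% of all promoters. TATAAA was present in Slc26a3 at -30 (12.4% of all promoters), and a TTTAT match, the letters of the intestinal factors CDX, overlapped it at -29 (37.3%). The GC box GGGCGG occurred 6 times in Cftr, some overlapping, 3 times in Slc9a3, 2 times in Scnn1g and 1 time in Scnn1b (32.7% of all promoters hold it), and not in Slc26a3 or Slc6a14. CCACCC, the letters of KLF factors, was in Cftr, Scnn1g, Slc26a3 and Slc9a3 (28.1%), and CCAAT was in Slc26a3 and Slc6a14 (33.8%). None of the 6 windows held the HNF4 letters CAAAGTCCA (0.384% of all promoters), the letters AGATAA read by GATA factors (9.99%) or the TCF letters ATCAAAG (3.21%). The cAMP response element TGACGTCA (1.55%) and the steroid receptor motif (0.0609%) were not found either. A match describes letters and shows no binding.

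The apical exchangers were highest in surface or Fxyd4 Tgm3 colonocyte-like cells. Levels are given in CPM, with exact Poisson intervals that cover counting error only, and are compared between cells and not between genes. Slc26a3, which takes up chloride in exchange for bicarbonate, was highest in Fxyd4 Tgm3 colonocyte-like cells, at 2062 in batch 1 (95% interval 2017 to 2108) and 2119.7 in batch 2 (2078 to 2162). Surface colonocyte-like cells, led by Aqp8 and Clca4a, followed with 1285 and 1962. Crypt-base stem-like cells had 60.0 and 43.4, so that the surface level was 21.4 and 45.2 times the base level in the 2 batches. Between these ends lay the Cxcl5 Nos2 (311 and 685), Car1 Cyp2c55 (325 and 297), Aqp4 Cyp2c68 (289.5 and 311) and Reg3b Car1 (195 and 226) colonocyte-like cells, of which the first 3 could not be put in order across batches. The lowest level was in the Kcnma1 Slc12a8 cluster (7.89 and 6.32), and 86.9% and 96.5% of all epithelial UMIs of Slc26a3 came from colonocyte-like cells. Fibroblast-like cells, as a background, had 52.1 and 71.3, under the crypt-base level in batch 1 and above it in batch 2.

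Slc9a3, the main sodium/proton exchanger of absorptive cells, peaked in the surface subtype itself. It stood there at 351 in batch 1 (95% interval 329 to 374) and 499 in batch 2 (480.3 to 519). The Fxyd4 Tgm3 cells had 283 and 272 and the Car1 Cyp2c55 cells 232 and 225. Both batches kept this order, with no overlap between neighbours, down to the Cxcl5 Nos2 cells (112 and 142). Aqp4 Cyp2c68 and Reg3b Car1 cells (54.2 and 56.1, and 48.5 and 56.0) could not be separated from each other. Crypt-base cells had 14.8 and 5.01, which puts the surface 23.8 and 99.7 times higher, and cycling-like cells had 7.12 and 0. The size of that ratio differed between batches mainly through the crypt-base level, which rested on 148 and 12 UMIs.

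Slc9a2, the second apical sodium/proton exchanger, had a shallower gradient. Its levels were 289 in batch 1 (95% interval 269 to 309) and 305 in batch 2 (290.5 to 321) in surface cells. Fxyd4 Tgm3 cells followed at 236 and 232, Car1 Cyp2c55 cells at 208 and 180.3 and Cxcl5 Nos2 cells at 104 and 89.1, again without overlap between neighbours. The crypt base had 36.0 and 29.6, and the surface was 8.02 and 10.3 times higher. Enteroendocrine-like cells, the hormone cells of the epithelium, had 57.7 and 72.3, above crypt-base cells in both batches, and goblet-like cells were low (mature 15.9 and 7.98, deep-crypt 11.1 and 4.78).

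The colonocyte-like subtypes differed in depth and RNA quality as well as in marker genes. Fxyd4 Tgm3 and surface cells had fewer UMIs per cell (medians 6650.0 and 7658, and 6772 and 11342) than crypt-base cells (15594 and 10801), except surface cells in batch 2. Their median mitochondrial share was also higher, at 11.2% and 7.54%, and 12.3% and 5.80%, against 5.52% and 4.12% at the base. With only cells of at most 10% mitochondrial UMIs, the same subtype stayed highest for all 10 genes, and so it did for the share of cells with a UMI after each cell was thinned to 2000 UMIs, except that in batch 1 alone the highest thinned share of Atp12a was in Fxyd4 Tgm3 cells and that of Scnn1g in Cxcl5 Nos2 cells. The fixed surface marker list, which holds none of the 10 genes, rose in the order crypt-base (233 and 176 CPM), Aqp4 Cyp2c68 (748 and 749.9), Car1 Cyp2c55 (2746 and 2937), Fxyd4 Tgm3 (4429 and 4989) and surface cells (6989 and 9190.4). Cxcl5 Nos2 cells had 7861 and 6077 CPM of it, above surface cells in batch 1 and under them in batch 2. The crypt-base list did not fall in the same order. It had 524 and 562 CPM at the base and 101 and 110 in Aqp4 Cyp2c68 cells. Car1 Cyp2c55 cells had 300 and 302 of it and surface cells 322 and 299. Fxyd4 and Tgm3 themselves belong to another list, for crypt-mid absorptive cells. By marker scores, 530 Fxyd4 Tgm3 cells fell to that list and 339 to the surface list.

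Slc6a14, which imports neutral and cationic amino acids with sodium and chloride, peaked in another colonocyte-like subtype than the exchangers. Its highest level was in Car1 Cyp2c55 cells, at 572 in batch 1 (95% interval 555 to 589) and 564 in batch 2 (547 to 582). Aqp4 Cyp2c68 cells had 399 and 435, surface cells 394 and 358, Cxcl5 Nos2 cells 323 and 279.9 and Fxyd4 Tgm3 cells 282 and 235. Fxyd4 Tgm3 cells thus stood at 0.493 and 0.417 times the Car1 Cyp2c55 level, whereas for Slc26a3 the same ratio was 6.35 and 7.13. Surface cells remained 5.66 and 9.85 times above the crypt base (69.5 and 36.3). The Kcnma1 Slc12a8 cluster was again lowest (4.73 and 3.16).

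The subunits of ENaC were highest in different subtypes. Scnn1a, the alpha subunit, was highest in Fxyd4 Tgm3 cells (169.7 and 179.6) and surface cells (137 and 171), which overlapped between batches, followed by Cxcl5 Nos2 cells (100.1 and 109) and mature goblet-like cells (83.3 and 69.4). Crypt-base cells had 8.78 and 9.18, under the level of fibroblast-like cells (10.3 and 10.5), a background. Scnn1b, the beta subunit, was found mainly in goblet-like cells and in the Kcnma1 Slc12a8 cluster. It reached 39.4 in batch 1 (95% interval 25.5 to 58.2) and 53.7 in batch 2 (37.2 to 75.1) in that cluster, 21.9 and 28.1 in mature goblet-like cells and 10.4 and 15.4 in deep-crypt goblet-like cells, and goblet-like cells held 77.9% and 80.7% of its epithelial UMIs. Surface, Car1 Cyp2c55 and tuft-like cells had 0 UMIs of Scnn1b in both batches. In surface cells a count of 0 allows up to 1.09 and 0.569 CPM (3 counts of the total), so the level in mature goblet-like cells was higher by at least 20.2 and 49.4 times in the 2 batches.

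Scnn1g, the gamma subunit that complete ENaC requires, was close to the limit of detection, with 46 UMIs in all 8208 epithelial-like cells. Mature goblet-like cells had 3.98 and 5.55 CPM, from 12 and 16 UMIs. No other subtype exceeded 1.58. Among goblet-like cells both Scnn1b and Scnn1g were highest in the mature subtype.

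Cells with UMIs of both alpha and beta subunits were counted next. Such cells numbered 245 of 8208, and 215 of them (87.8%) were goblet-like. This was 15.6% of the 1374 goblet-like cells, against 6 of 3908 colonocyte-like cells (0.154%), although Scnn1a was detected in 48.7% of the latter. All 3 subunits were detected in 10 cells, 9 of them goblet-like. Depth differs between these cells: deep-crypt goblet-like cells had medians of 25282 and 27989 UMIs and surface cells 6772 and 11342, while mature goblet-like cells, with 5794 and 5932, were no deeper than surface cells.

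At full depth, 18.9% and 21.5% of mature goblet-like, 20.4% and 28.4% of deep-crypt goblet-like and 18.1% and 30.2% of Kcnma1 Slc12a8 cells had a UMI of Scnn1b. After thinning to 2000 UMIs per cell the shares were 7.69% and 7.69%, 2.28% and 2.86% and 11.9% and 15%, and 0% in surface cells in both batches. Neutrophil-like cells (medians 2613 and 3097 UMIs), which served as background, had 0% at either depth. Thinned shares of Scnn1a were 30.7% and 34.8% in Fxyd4 Tgm3 cells, 25.8% and 30.5% in surface cells and 17.8% and 13.8% in mature goblet-like cells, against 2.35% and 1.23% in fibroblast-like cells (medians 5973 and 5709 UMIs).

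The secretory pair had the opposite gradient to the exchangers. Cftr was highest in crypt-base stem-like cells, at 358 in batch 1 (95% interval 347 to 370.2) and 425 in batch 2 (399 to 452). Cycling-like cells had 179.7 and 207, the Hbb-bs Ccnb2 progenitor cluster 152 and 181 and Aqp4 Cyp2c68 cells 111 and 114. Surface cells had 30.8 and 20.3, so that the crypt base was 11.6 and 20.9 times higher, and mature goblet-like cells were lowest (10.3 and 3.82). As a background, fibroblast-like cells had 54.0 and 9.47 of Cftr, neutrophil-like cells 11.1 and 7.49 and ambient RNA (from near-empty droplets) 111 and 52.6. The surface level of Cftr lay under the fibroblast-like level in batch 1 and above it in batch 2.

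Slc12a2, which loads chloride for secretion, was high at the crypt base, in the Kcnma1 Slc12a8 cluster and in deep-crypt goblet-like cells. The Kcnma1 Slc12a8 cluster had 735 in batch 1 (95% interval 670.1 to 805) and 659 in batch 2 (597 to 726), above crypt-base cells in both batches (548 and 554). Deep-crypt goblet-like cells had 286 and 262 and mature goblet-like cells 94.6 and 113, whereas Cftr was low in both (42.8 and 22.9, and 10.3 and 3.82). Surface cells had 18.8 and 9.30, and the crypt base exceeded them 29.1 and 59.5 times. As a background, neutrophil-like cells had 18.5 and 9.10 of Slc12a2 and fibroblast-like cells 82.5 and 25.7. The surface level was thus close to the neutrophil-like level and under the fibroblast-like level. Tuft-like and enteroendocrine-like cells differed between batches (172 and 48.1, and 169.8 and 43.3), which leaves their rank uncertain. Progenitor-like cells held 64.1% and 49.0% of the epithelial UMIs of Slc12a2 and 69.4% and 62.1% of those of Cftr.

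Atp12a, the nongastric proton/potassium pump of the colon, was concentrated in a part of the absorptive cells. It had 348 in batch 1 (95% interval 327 to 371) and 378 in batch 2 (346 to 412) in Cxcl5 Nos2 cells and 341 and 302 in Fxyd4 Tgm3 cells. Surface and mature goblet-like cells stood well below and overlapped (49.3 and 70.8, and 75.0 and 44.4). Car1 Cyp2c55 cells, the subtype with most Slc6a14, had 1.73 and 2.03, so that Fxyd4 Tgm3 cells exceeded them 197 and 149 times, while Slc9a3 differed 1.22 and 1.21 times between the same subtypes. Ambient RNA held 30.5 and 50.8 CPM of Atp12a and neutrophil-like cells 3.29 and 5.62. The Cxcl5 Nos2 cells also carried neutrophil markers (2221 and 1839 CPM of the list), and Ly6g was among their leading genes. Whether those transcripts bear on the Atp12a level was not tested.

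Outside the epithelium the genes were mostly low. Slc26a3, the most abundant in ambient RNA (202 and 376 CPM), had 22.6 and 36.9 in neutrophil-like cells, 33.5 and 78.1 in macrophage and monocyte-like cells and 52.1 and 71.3 in fibroblast-like cells. Neutrophil-like cells had 41.1 and 42.0 CPM of Scnn1a (100 and 157 UMIs), and ambient RNA had 32.4 and 45, less than those cells in batch 1 and more in batch 2. Of the neutrophil-like cells, 10.8% and 11.9% had a UMI of Scnn1a at full depth (6.63% and 6.09% after thinning). Macrophage and monocyte-like cells had 7.03 and 14.2 CPM and fibroblast-like cells 10.3 and 10.5. The ratio of Scnn1a to Slc26a3 UMIs was 1.82 and 1.14 in neutrophil-like cells, 0.210 and 0.181 in macrophage and monocyte-like cells and 0.160 and 0.120 in ambient RNA. Endothelial-like cells had 202 and 225 of Slc12a2, from only 19 and 24 cells.

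Across 28 sums (14 subtypes in 2 batches), the log2 levels of the 10 genes were set side by side as a description. Subtypes share libraries and depth, and so the points are not independent. Slc26a3 went most with Slc9a3 (Pearson r 0.93) and Slc9a2 (0.92), and against Slc12a2 (-0.90). Slc12a2 and Slc9a3 had r -0.91. Slc12a2 and Cftr, the secretory pair, had only 0.52, and Scnn1a and Scnn1b 0.21. For each gene with at least 500 UMIs, the 3 genes most like it were then looked up among 8529 genes. These were 4732465J04Rik (0.96), Prdx6 (0.96), Abcg2 (0.96) for Slc26a3, Sgk2 (0.95), Ces2c (0.94), Mep1b (0.94) for Slc9a3, and Nudt4 (0.96), 4732465J04Rik (0.96), Abcg2 (0.95) for Slc9a2. For Slc6a14 they were Sult1b1 (0.97), AA467197 (0.96), Lrrc19 (0.95), and for Atp12a 2310079G19Rik (0.91), Saa2 (0.89), Saa1 (0.86). Among the 3 genes most like Scnn1a were Fhl1 (0.93), Fbxo32 (0.93), and Scnn1b most like St6gal1 (0.97), Galnt5 (0.96), Atoh1 (0.96); Atoh1 is the transcription factor that sets secretory fate. Cftr was closest to Akap7 (0.93), Nadk2 (0.93), Pdss1 (0.92), and Slc12a2 to Cdk6 (0.95), Aldh18a1 (0.94), Mettl1 (0.94), of which Cdk6 belongs to the crypt-base marker list.

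The axis from crypt base to surface was tested on cells sorted by marker scores that use none of the 10 genes. The surface group held 1162 cells and the crypt-base group 963, of which 408 and 320 lay near the border of their group. Raw UMIs were summed by group and batch and fitted with edgeR. Of 14961 genes, 59.8% passed an adjusted p of 0.05 (27.7% higher and 32.1% lower at the surface). Among the 10 genes 6 were higher and 3 lower, which is to be read against that large background, and their median log2 change was 3.55 beside -0.20 for all genes. No source used here says that the batches came from different animals. The p-values therefore measure only the spread between these sums, which may be technical.

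Slc26a3 had 42.5 and 56.2 CPM in the 2 crypt-base sums and 1023 and 1934 in the surface sums, a log2 change of 5.46 (SE 0.46, adjusted p = 2.39e-07). Slc9a3 went from 12.9 and 20.4 to 271 and 427 and changed by 5.00 (SE 0.62, adjusted p = 8.35e-06). Slc9a2 went from 26.2 and 29.1 to 243 and 302, by 3.89 (SE 0.27, adjusted p = 5.00e-08). The surface sums of these exchangers lay above the base sums in both batches. Slc6a14 changed by 3.22 (SE 0.50, adjusted p = 6.86e-05), from 51.2 and 64.6 to 387 and 329.7. Scnn1a changed by 4.23 (SE 0.17, adjusted p = 1.82e-09) and Atp12a by 4.87 (SE 0.41, adjusted p = 2.13e-07), the latter from 7.67 and 3.50 to 121 and 117. The group of surface cells here includes 339 cells of the Fxyd4 Tgm3 and 87 of the Cxcl5 Nos2 subtype, and Atp12a is high in both. The surface subtype itself had 49.3 and 70.8 CPM of Atp12a.

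The secretory genes fell toward the surface. Slc12a2 had 553 and 506 at the base and 22.6 and 5.91 at the surface, a log2 change of -4.81 (SE 0.45, adjusted p = 5.83e-07). Cftr had 284 and 269 and 47.2 and 16.1 and changed by -2.73 (SE 0.52, adjusted p = 3.76e-04). Scnn1b was also lower, with 36 and 17 UMIs at the base and 0 and 1 at the surface, a ratio of 0.0238 (95% interval 0.000593 to 0.139; adjusted p = 1.99e-04 by edgeR). Scnn1g had 3 UMIs in both groups together and did not pass (log2 change -0.20, SE 1.97, adjusted p = 0.943). The crypt-base group was set by marker scores, and 43 of its cells belonged to the Kcnma1 Slc12a8 cluster, 38 to the deep-crypt goblet-like and 9 to the mature goblet-like subtype, where Scnn1b was highest. The crypt-base stem-like subtype itself had 7 and 5 UMIs of Scnn1b (0.698 and 2.09 CPM). DESeq2 made the same 9 calls.

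Other genes of salt transport were followed in 8 lists, of which 47 of 54 genes were tested and 26 rose and 11 fell toward the surface. Of all genes tested on this axis, 27.7% rose and 32.1% fell, and the counts per list are to be read against those shares. The median of the tested partners was 0.91. All 4 tested scaffolds and partners of NHE3 rose (median log2 change 3.03), led by Slc9a3r1 (3.85, log2), Chp1 (3.08) and the membrane linker Ezr (2.98). Of 9 genes that control ENaC, 7 rose and 1 fell (median 1.16), with St14 (2.67), a protease, the kinase Sgk1 (2.05) and the aldosterone receptor Nr3c2 (1.82) in front. Of 6 carriers coupled to nutrient uptake, 4 rose (median 3.33), among them the peptide carrier Slc15a1 (5.51) and the amino acid carriers Slc6a19 (5.42) and Slc7a9 (4.61).

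Of 9 potassium and chloride channels, 5 fell and 3 rose (median -4.16), where 32.1% of all genes fell and 27.7% rose. Kcnn4 (-4.90) and Kcne3 (-4.47), genes of the potassium exit that chloride secretion relies on, and Kcnma1 (-4.54) changed most. The crypt-base group held 43 cells of the Kcnma1 Slc12a8 cluster, which Kcnma1 leads, and the surface group 0. In the list of other exchangers 2 of 6 rose, the sulfate carrier Slc26a2 (3.16) and Slc4a2 (1.82), and Slc4a4 (-0.91), a bicarbonate importer, fell (median 0.06). Of 8 genes of the cyclic nucleotide arm 4 rose and 2 fell, with the guanylin gene Guca2a (4.48) and the prostaglandin receptor Ptger4 (1.22) up and the phosphodiesterase Pde4d (-0.97) down (median 0.72). Atp4a (-3.45) was the only tested gene of the potassium pump list.

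**Figure D1:**
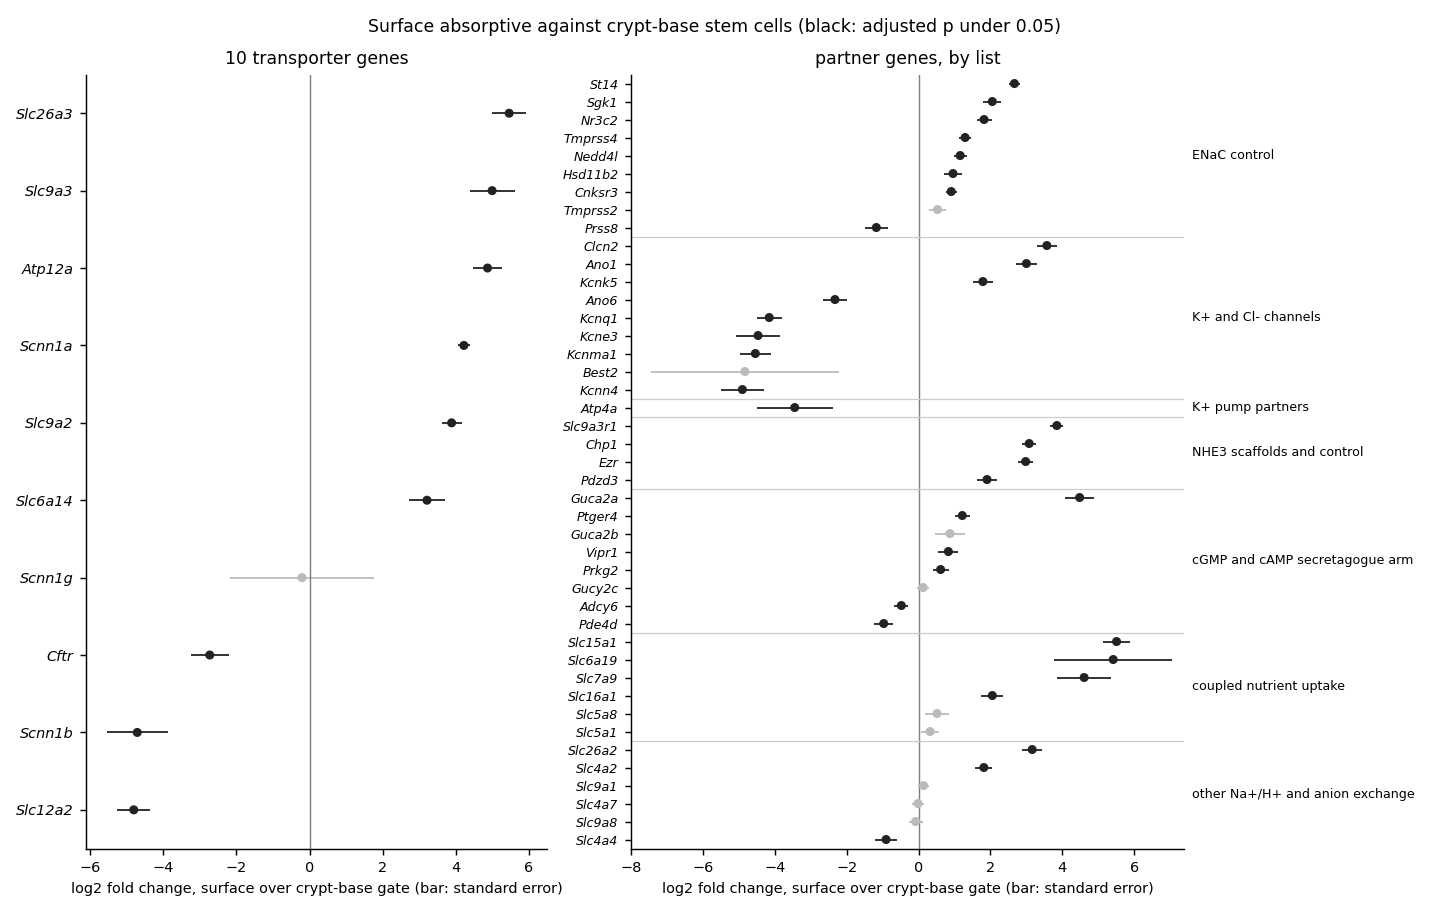
Log2 change from crypt-base to surface cells (horizontal axis) with its standard error for the 10 genes (left) and the partner genes of 7 lists (right), black where the adjusted p of edgeR is under 0.05. The 6 higher genes lie to the right of 0, Cftr, Scnn1b and Slc12a2 to the left, and Scnn1g has an error bar that spans 0.

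The tags were compared next in epithelial-like cells, 1 sum per tag and batch. Ctrl_WT marked 97 and 57 cells, TG_WT 349 and 193, Ctrl_DSS 295 and 394 and TG_DSS 91 and 76. In such a sum, fewer cells of a type and less RNA per cell cannot be told apart. From Ctrl_WT to Ctrl_DSS, no gene of the 9 tested passed after adjustment by edgeR, and the values of Slc9a3, Slc9a2, Slc6a14 and Slc26a3 are given first. Slc9a3 had 79.8 and 96.2 CPM with Ctrl_WT, 61.3 and 84.8 with TG_WT, 26.6 and 48.6 with Ctrl_DSS and 38.7 and 50.8 with TG_DSS. For Slc9a3 both Ctrl_DSS sums lay under both Ctrl_WT sums, as for 18.2% of all genes. Both TG_DSS sums lay under both TG_WT sums, as for 12.2%. Its log2 change from Ctrl_WT to Ctrl_DSS was -1.34 (SE 0.20, adjusted p = 0.0786), and from TG_WT to TG_DSS -0.80 (SE 0.20, adjusted p = 0.240), by edgeR.

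Slc9a2 had 103 and 84.6 with Ctrl_WT, 64.7 and 80.9 with TG_WT, 35.8 and 49.1 with Ctrl_DSS and 67.4 and 74.1 with TG_DSS. Both Ctrl_DSS sums lay under both Ctrl_WT sums, as for 18.2% of all genes, and the log2 change from Ctrl_WT was -1.24 (SE 0.22, adjusted p = 0.10) by edgeR. Slc6a14 had 222 and 228, 171 and 229, 107 and 120.4 and 110.0 and 156 in the same order of tags, with a change from Ctrl_WT to Ctrl_DSS of -1.06 (SE 0.18, adjusted p = 0.10) by edgeR. For Slc6a14 too both Ctrl_DSS sums lay under both Ctrl_WT sums (18.2% of all genes), and both TG_DSS sums under both TG_WT sums (12.2%). Slc26a3 had 325 and 326, 240.3 and 153, 117 and 209.8 and 134 and 192. Both Ctrl_WT sums of Slc26a3 lay above both Ctrl_DSS sums (18.2% of all genes) and both TG_WT sums (13.5%), and the tags other than Ctrl_WT overlapped. Its change from Ctrl_WT to Ctrl_DSS was -1.08 (SE 0.31, adjusted p = 0.215) by edgeR.

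The remaining genes moved less or varied between batches. Atp12a had 13.4 and 33.8 with Ctrl_WT and 8.52 and 9.26 with Ctrl_DSS, and 44.8 and 15.6 with TG_WT. Its log2 change from Ctrl_WT to Ctrl_DSS was -1.34 (SE 0.58, adjusted p = 0.375) by edgeR. Its batches spread widely under Ctrl_WT and TG_WT. Scnn1a had 41.1 and 33.8, 46.7 and 32.1, 31.0 and 38.6 and 29.5 and 30.8 with Ctrl_WT, TG_WT, Ctrl_DSS and TG_DSS, a narrow range, and Scnn1b had 1.91 and 3.17, 5.66 and 10.7, 3.23 and 7.47 and 4.38 and 1.66, where TG_DSS in batch 2 rested on 2 UMIs. The log2 difference between Ctrl_DSS and Ctrl_WT was -0.17 (SE 0.23, adjusted p = 0.818) for Scnn1a, -0.28 (SE 0.38, adjusted p = 0.809) for Cftr, 0.44 (SE 0.26, adjusted p = 0.533) for Slc12a2 and 0.97 (SE 0.68, adjusted p = 0.594) for Scnn1b by edgeR, and none of these passed. Slc12a2 had 161 and 115 with Ctrl_WT and 201 and 176 with Ctrl_DSS, while 184 and 92.6 with TG_WT and 244 and 102 with TG_DSS spanned the range of both. Cftr had 82.7 and 126, 101 and 40.4, 99.8 and 81.0 and 96.9 and 51.6 in the order Ctrl_WT, TG_WT, Ctrl_DSS and TG_DSS, and Ctrl_WT and Ctrl_DSS overlapped.

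Counted over the 9 genes that passed the filter on low counts (Scnn1g did not), edgeR called 0 from Ctrl_WT to Ctrl_DSS, where 0.0328% of 12189 genes were called (0.0082% higher and 0.0246% lower). At an unadjusted p under 0.05 there were 5 of the 9, and 1609 of all 12189 genes. DESeq2 called 4 of the 9 lower, Slc26a3, Slc6a14, Slc9a2 and Slc9a3, among 259 genes called (172 lower). Without the TG_WT sum of either batch, edgeR called the same 4 genes lower, and each of those fits called 191 genes. Over the 9 genes the median log2 change was -1.06 beside 0.02 for all genes. In 5 genes, Slc9a2, Slc9a3, Slc26a3, Slc6a14 and Atp12a, both Ctrl_DSS sums lay below both Ctrl_WT sums, as they did for 18.2% of all genes, and in 2, Slc12a2 and Scnn1b, above, as for 29.3%. Among the partner lists 1 of 45 genes was called, the cGMP-dependent kinase Prkg2 (log2 change -1.61, adjusted p = 0.0479 by edgeR).

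**Figure D2:**
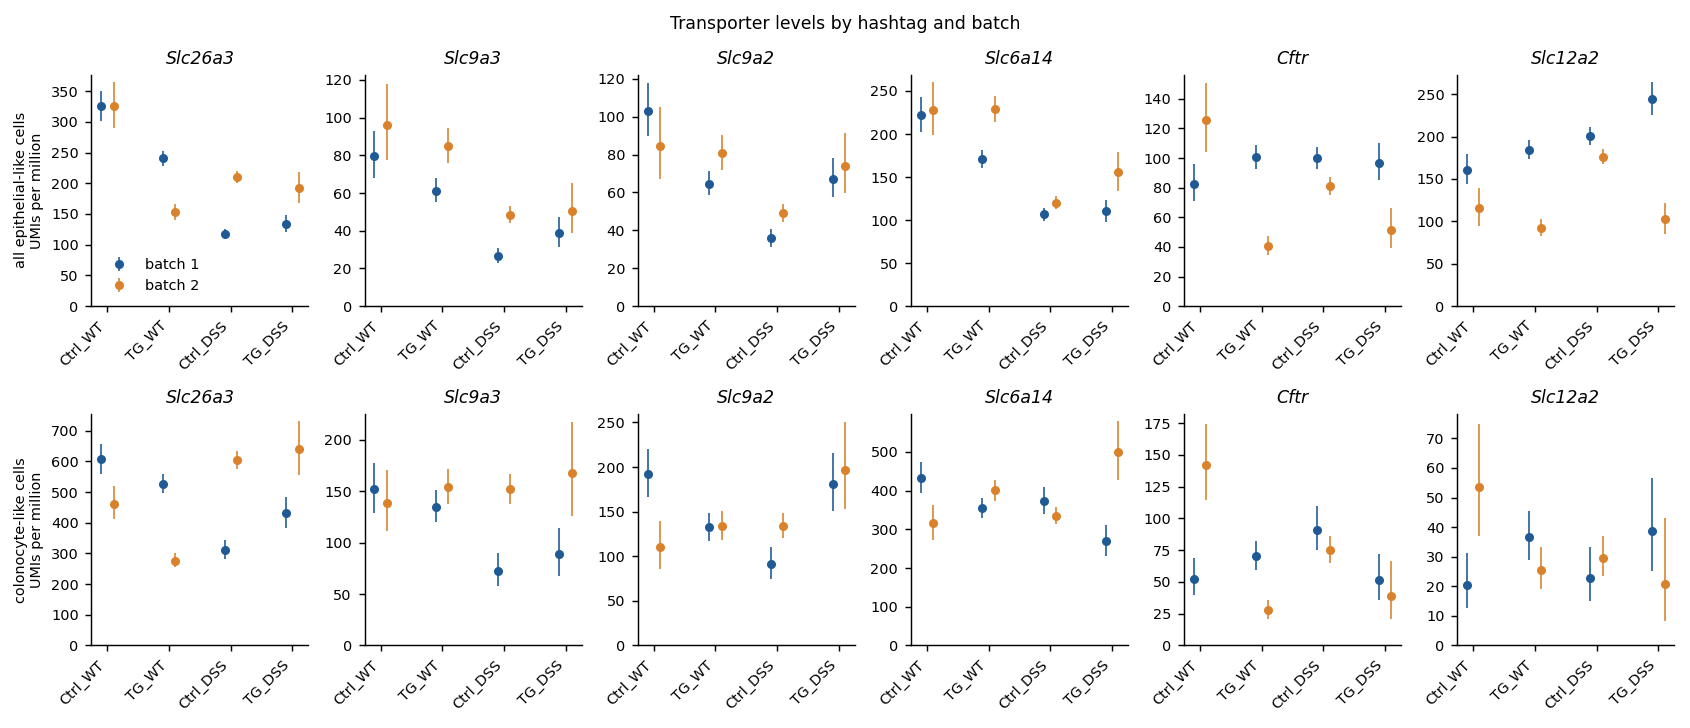
CPM (vertical axes) of Slc26a3, Slc9a3, Slc9a2, Slc6a14, Cftr and Slc12a2 by tag (horizontal axes) in all epithelial-like cells and in colonocyte-like cells, 1 point per batch with its 95% Poisson interval. In all epithelial-like cells the 4 absorptive genes are lower with Ctrl_DSS than with Ctrl_WT in both batches; in colonocyte-like cells the batches of these tags overlap.

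The mix of cells also differed between these tags. Colonocyte-like cells made up 50.5% and 66.7% of epithelial-like cells labelled Ctrl_WT and 20.7% and 35.5% of those labelled Ctrl_DSS. Goblet-like cells were 16.5% and 10.5% with Ctrl_WT and 40.7% and 39.3% with Ctrl_DSS. To set the mix beside the levels, each subtype was held at its level in untagged cells of the batch and weighted by its UMIs under the tag. For Slc26a3, Slc9a3, Slc9a2 and Slc6a14 the mix alone gave a Ctrl_DSS to Ctrl_WT ratio of 0.269 to 0.418 in batch 1, where 0.333 to 0.480 was measured. In batch 2 these were 0.504 to 0.822 from the mix and 0.505 to 0.644 measured.

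By gene, the ratio for Slc9a2 was 0.347 and 0.580 measured and 0.364 and 0.633 from the mix, and for Slc6a14 0.480 and 0.527 and 0.418 and 0.504. Slc9a3 had 0.333 and 0.505 against 0.269 and 0.730, and in batch 2 its measured ratio was the lower. Slc26a3 had 0.360 and 0.644 against 0.351 and 0.822. For Slc12a2, higher with Ctrl_DSS, the ratios were 1.25 and 1.53 measured and 1.44 and 1.92 from the mix.

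Among the exchangers the lowest ratio of measured to mix level was that of Slc26a3 under TG_WT in batch 2. There Slc26a3 was at 0.479 (95% interval 0.441 to 0.519) of the value its mix gave, Slc9a3 at 0.659 (95% interval 0.589 to 0.734) and Slc9a2 at 0.728 (95% interval 0.649 to 0.813). In batch 1 the same tag had 0.983 (95% interval 0.934 to 1.03), 1.02 (95% interval 0.921 to 1.13) and 1.06 (95% interval 0.960 to 1.17), so the departure was seen in 1 batch only. Atp12a departed as far under Ctrl_WT, at 0.463 (95% interval 0.308 to 0.670) in batch 1 and 1.89 (95% interval 1.29 to 2.66) in batch 2, in opposite directions. Under Ctrl_DSS it was at 0.660 (95% interval 0.501 to 0.853) and 0.647 (95% interval 0.515 to 0.802). Cells labelled TG_WT in batch 2 also carried more neutrophil transcripts (146 and 4210.3 CPM of the list in the 2 batches, against 94.1 and 71.9 with Ctrl_WT, 64.5 and 70.6 with Ctrl_DSS and 7807 and 16453 with TG_DSS). Their part in the result was not tested. TG_DSS had the largest share of enteroendocrine-like cells (26.4% and 32.9%). Cells of that subtype carried 7124 and 25665 CPM of the neutrophil list, and tuft-like cells 2336 and 9266. The part of these transcripts in the shares was not tested either.

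Within colonocyte-like cells the difference between Ctrl_DSS and Ctrl_WT was smaller and not the same in both batches. Slc9a3 had 152 and 139 with Ctrl_WT and 72.5 and 152 with Ctrl_DSS, a log2 change of -0.43 (SE 0.30, adjusted p = 0.987) by edgeR. Slc9a2 had 192 and 110.4 and 91.1 and 134, with a change of -0.40 (SE 0.30, adjusted p = 0.987). Slc26a3 had 607 and 462 and 311 and 605 (log2 change -0.20, SE 0.38, adjusted p = 0.988), and Slc6a14 433 and 316 and 374 and 335 (log2 change -0.06, SE 0.30, adjusted p = 1.000), all by edgeR. In batch 1 Ctrl_DSS was below Ctrl_WT for the exchangers, in batch 2 above. The sums were small (49 and 38 cells against 61 and 140), and 50.8% of colonocyte-like cells labelled Ctrl_DSS in batch 1 were Aqp4 Cyp2c68 cells, against 10.2% with Ctrl_WT.

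In colonocyte-like cells 8 of the 10 genes were tested, without Scnn1b and Scnn1g. From Ctrl_WT to Ctrl_DSS edgeR called 0 of them (0% of 8344 genes), 0 had an unadjusted p under 0.05, DESeq2 called 0, and no gene of the 8 had sums that did not overlap. From Ctrl_DSS to TG_DSS edgeR called 0, where 0.0839% of genes were called, and DESeq2 called 0. There 1 had an unadjusted p under 0.05, Slc9a2, with 181 and 197 under TG_DSS (log2 change 0.69, SE 0.31, adjusted p = 0.875). Slc9a2 and Atp12a were higher in both TG_DSS sums (20.1% of genes were), and Cftr lower (17.1%). The TG_DSS sums held 28 and 23 cells.

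The other tag comparisons share sums with the first. From Ctrl_WT to TG_WT in epithelial-like cells edgeR called 0 of 9 genes and 0% of all genes (651 had an unadjusted p under 0.05). Of the 9, 2 were among those, Slc26a3 (log2 change -0.73, SE 0.31, adjusted p = 0.870) and Scnn1b (log2 change 1.65, SE 0.67, adjusted p = 0.870), and DESeq2 called 0. Slc9a2 and Slc26a3 were lower in both TG_WT sums (13.5% of genes were) and Scnn1b higher (18.6%). From TG_WT to TG_DSS edgeR called 0 of 9 and 0% of all genes, and DESeq2 called 0. Slc9a3 and Slc6a14 (log2 change -0.71, SE 0.18, adjusted p = 0.253) had an unadjusted p under 0.05, as 1347 of all genes did, and together with Scnn1a and Scnn1b they were lower in both TG_DSS sums, 4 genes where 12.2% of all were. All 4 turned positive without cells holding a neutrophil-list UMI, which leaves out the TG_DSS sum of batch 2: the log2 changes were then 0.40 (SE 0.41) for Slc9a3, 0.26 (SE 0.29) for Slc6a14, 0.17 (SE 0.67) for Scnn1a and 1.81 (SE 1.23) for Scnn1b, and the median of the 9 went from -0.50 to 0.33. No gene of the 9 passed there.

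From Ctrl_DSS to TG_DSS 4.07% of genes were called (3.73% higher and 0.336% lower), and by edgeR and DESeq2 0 of the 9. Slc9a2, with 0.69 (SE 0.22, adjusted p = 0.146), was the only gene of the 9 with an unadjusted p under 0.05, among 1982 of all genes. Slc9a2 and Atp12a were higher in both TG_DSS sums, as 28.9% of genes were, and Scnn1a lower, as 19.1% were. The interaction of the 4 tags, that is the change from TG_WT to TG_DSS less the change from Ctrl_WT to Ctrl_DSS, was called by edgeR for 0 of the 9 and 0% of all genes, and by DESeq2 for 0 of the 9. It was 1.10 (SE 0.30, adjusted p = 0.514) for Slc9a2 and -2.17 (SE 0.90, adjusted p = 0.631) for Scnn1b, the 2 genes of the 9 with an unadjusted p under 0.05, among 933 of all genes. In colonocyte-like cells the comparisons of Ctrl_WT with TG_WT and of TG_WT with TG_DSS, and the interaction, likewise called 0 of the 8 genes by edgeR and by DESeq2, with 0% of all genes called by edgeR and 0 of the 8 at an unadjusted p under 0.05.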

How the data were processed

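The authors deposited raw UMI counts per gene and per hashtag over all droplet barcodes of each batch. Per the submitters' processing notes they used Cell Ranger 7.0.0 and mm10. Which annotation release was used and how intronic reads were treated is not stated there. The 10 genes and all lists were chosen with earlier results of these data known.

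Barcodes were called as cells by total UMIs or, above 500, by departure from ambient RNA (at most 100 UMIs per barcode), and stayed in if they had 250 genes or more and no more than 25% mitochondrial UMIs. Tags were called by Gaussian mixtures. Cells positive for several tags entered no tag comparison, and no other doublet caller was run. Cells were clustered with scanpy 1.11.5 (2000 variable genes without the 10, 30 components, 15 neighbours, Leiden resolution 1) into 25 clusters. Clusters were named from fixed markers detected in 25% of their cells, and 2 mixed epithelial and neutrophil clusters (635 cells) were kept apart. For the crypt axis, each epithelial-like cell took the highest of 9 marker scores.

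Sums of raw counts were tested with edgeR 4.0.16 (quasi-likelihood, TMM, its expression filter, batch as a term, Benjamini-Hochberg over all genes tested) and, as an alternative, DESeq2 1.42.0. The SE (standard error) beside an edgeR change was not fitted. It is the absolute log2 change divided by the square root of the F statistic of the test. The scripts were tested on simulated data. The block rests on the labels, which give a batch as 1 shared loading. Deviations of sums of the same batch correlated between -0.0301 and 0.334 in epithelial-like and between -0.196 and 0.322 in colonocyte-like cells. Named were all 10 genes, at most 3 partners per list by size of change among those that passed, and the 3 genes most like each member. The results of 2 of these genes, and with them 1 partner list, are not reported here.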

Additional observations from a re-analysis of the deposited data

Results flagged for a closer look

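Scnn1a was found in cells that the comparisons above do not use. Neutrophil-like cells held 41.1 CPM of Scnn1a in batch 1 and 42.0 in batch 2, above macrophage and monocyte-like cells (7.03 and 14.2) and above the limit that a count of 0 allows (1.23 and 0.803). Ambient RNA held 32.4 and 45 CPM, so in batch 2 the level was not above it. Cells labelled TG_DSS had 41.8 and 38.4 CPM and cells labelled TG_WT in batch 2 had 41.7. Each other tag and batch held 16 or fewer neutrophil-like cells. The nearest coding genes, Tnfrsf1a (204 and 189) and Ltbr (17.7 and 12), stood at other levels. Whether the reads belong to Scnn1a transcripts was not tested.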

How the results depend on the processing

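The calls along the crypt axis kept their direction and side of the threshold under all 8 alternatives. Scnn1g, which was not called, passed in none of them, and its log2 change ranged from -2.97 to 3.05. The subtype with the highest level also stayed the same, except with only cells clearly inside their group. There Scnn1a and Slc26a3 were highest in surface cells. No called value changed direction in any alternative run. Among values not called, changes of sign occurred in every tag comparison, those from TG_WT to TG_DSS partly given above. From Ctrl_WT to Ctrl_DSS in epithelial-like cells, the log2 change of Atp12a ranged from -2.29 to 0.82. That of Cftr ranged from -0.93 to 0.49 and that of Scnn1a from -0.81 to 0.12, while the other tested genes kept their sign. In colonocyte-like cells every tested gene but Atp12a turned sign in this comparison. The tag results are less settled. From Ctrl_WT to Ctrl_DSS in epithelial-like cells, the number of the 10 genes called went from 0 to 4 with DESeq2, 5 with no filter on low counts, 2 with the highest-tag rule (Slc9a2 and Slc9a3), 1 with a stricter hashtag threshold (Slc9a3), and 0 to 4 on leaving out a sum, the 4 when either TG_WT sum was left out. The adjusted p of Slc9a3 ranged from 1.25e-05 to 0.439, and its log2 change from -1.88 to -1.01. From TG_WT to TG_DSS, 1 gene (Slc9a3) passed with no filter. The cause was not tested.

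Over all genes, in epithelial-like cells, the counts from Ctrl_WT to Ctrl_DSS (4) became 259 (DESeq2), 620 (no filter), 70 (highest tag), 50 (stricter threshold), 8 (no cells with a neutrophil-list UMI), 1 (no goblet-, enteroendocrine- or tuft-like cells), 0 (at most 10% mitochondrial UMIs), 1 (no replicate block) and 0 to 191 on leaving out a sum. From Ctrl_DSS to TG_DSS (496) they became 1272 (no filter), 0 (no replicate block), 10 (no goblet-, enteroendocrine- or tuft-like cells), 4 (no neutrophil-list UMI) and 0 to 812 (0 without the Ctrl_DSS sum of batch 2). From TG_WT to TG_DSS (0) they became 52 (DESeq2), 582 (no filter), 1 (no block), 1 (no goblet-, enteroendocrine- or tuft-like cells), 1 (no Cxcl5 Nos2 cluster) and 0 to 191. From Ctrl_WT to TG_WT (0) they became 25 (DESeq2), 306 (no filter), 9 (highest tag), 3 (no neutrophil-list UMI), 4 (stricter threshold) and 0 to 165, and for the interaction (0) 34 (DESeq2), 336 (no filter), 25 (highest tag), 1 (no goblet-, enteroendocrine- or tuft-like cells) and 0 to 122. In colonocyte-like cells, DESeq2 and no filter gave 1 and 24 (Ctrl_WT to Ctrl_DSS, 0 before), 17 and 149 (Ctrl_DSS to TG_DSS, 7), 1 and 54 (TG_WT to TG_DSS, 0) and 4 and 112 (Ctrl_WT to TG_WT, 0), and no filter gave 22 for the interaction (0). Leaving out a sum gave 0 to 1, 0 to 31, 0 to 11, 0 to 61 and 0 to 2 in this order. Without the replicate block 4 genes were called from Ctrl_DSS to TG_DSS, and the stricter threshold gave 2 there and 1 from Ctrl_WT to TG_WT.

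The block changed no call among the 10 genes. The stricter threshold and the fit without the Cxcl5 Nos2 cluster were chosen after seeing the data. Without cells holding a neutrophil-list UMI, the TG_DSS sum of batch 2 fell under 10 cells and was left out. Scnn1g, with 46 epithelial UMIs, was tested between tags only with no filter on low counts.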
